A study of Mus musculus with 2 samples.

Results

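SOX9 cofactors and coactivators are the nuclear proteins that bind SOX9 or assist it at cartilage genes. The group examined here held 10 genes named for this reported role and found by gene symbol among the 24421 rows of the count table: *Wwp2*, *Arid5a*, *Arid5b*, *Nono*, *Ep300*, *Crebbp*, *Med12*, *Med25*, *Zfp219* and *Kat5*. All 10 were present with at least 100 counts in each library. Expression was measured by RNA-Seq in 1 library of primary chondrocytes, obtained by collagenase from the rib cartilage of newborn mice, and 1 library of primary dermal fibroblasts, obtained from the dorsal skin of newborn mice. No genotype, strain, treatment or pooling of animals is given for either library, and the study used its chondrocytes within a limited number of passages.

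SOX9 is a DNA-binding factor that switches on the genes of cartilage matrix. It acts with proteins that bring enzymes to chromatin, such as the acetyltransferases p300, CBP and TIP60, and with Mediator, the complex that links enhancer-bound factors to RNA polymerase II. Other partners bind SOX9 directly, among them the ubiquitin ligase WWP2, the ARID5 proteins and the RNA-binding protein p54nrb. The study sequenced both cell types to narrow a list of candidate transcription factors by expression, and the same counts give the transcript level of each SOX9 partner in cartilage and in skin cells.

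Of the 10 genes, *Wwp2* alone was over 2-fold higher in chondrocytes. *Arid5a* was higher there by 1.63-fold. *Arid5b* was higher in dermal fibroblasts by 1.41-fold, and the other 7 genes also differed by less than 1.5-fold in either direction. *Sox9* itself had 5045 counts in the chondrocyte library, 342 in the other, and a fold of 15.2 (interval 13.6 to 17.0). The acetyltransferase and Mediator members thus lay within 1.5-fold in libraries whose *Sox9* counts were far apart.

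Counts were scaled between the libraries with TMM factors, which set the typical gene to equal levels, and are given as CPM, the count per 1e6 scaled counts. Each fold is the ratio of the scaled counts. Its interval is the 95% Clopper-Pearson interval of the counts, which covers counting error alone. The reads carry no molecular identifiers, so copies of 1 molecule could be counted apart and the interval may be too narrow. As there was 1 library of each cell type, no difference could be weighed against biological variation, and no p-value was computed. In tissue-derived cultures of this kind, more cells of a type and more RNA per cell cannot be told apart. The libraries held 18788599 and 17563724 counts.

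The cell type labels were compared with defining markers. All 8 cartilage markers were over 2-fold higher in chondrocytes, and *Col2a1*, *Acan* and *Col9a1* had 1447098, 148105 and 92699 counts there against 0, 35 and 1. Of 8 fibroblast markers, 7 were over 2-fold higher in dermal fibroblasts, and *Lum* was 1.14-fold higher in chondrocytes. *Col1a1*, *Col1a2* and *Col3a1* had 39143, 34091 and 32090 counts in chondrocytes against 322379, 265777 and 273385 in dermal fibroblasts. The fibroblast markers summed to 6501 CPM in chondrocytes and 49233 CPM in dermal fibroblasts. Markers of other cells differed too. Of 8 skeletal muscle markers, 4 (*Myod1*, *Myog*, *Pax7* and *Des*) were over 2-fold higher in chondrocytes (3 with total counts). *Myod1* had 2328 counts there against 496, and *Pax7* had 120 against 4. The other 4 were within 2-fold, among them *Myh3*, *Actc1* and *Acta1*, the markers of this list with the most counts. The summed level of the 8 was 1741 CPM in chondrocytes and 1262 CPM in dermal fibroblasts. The 6 keratinocyte markers summed to 8.93 and 249 CPM, the 6 macrophage markers to 106 and 167 CPM, and the 5 endothelial markers to 13.6 and 40.7 CPM. No marker of these 4 lists was at 0 in either library. The part of such cells in the differences between the SOX9 partners was not tested.

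**Figure D1:**
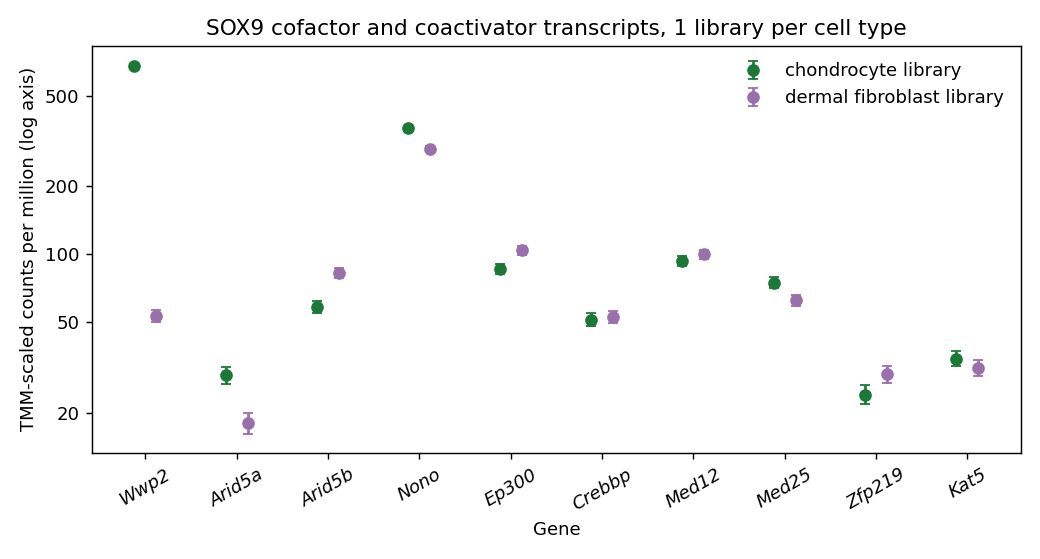
Level of each of the 10 genes in the chondrocyte library (green) and the dermal fibroblast library (purple), in CPM (TMM scaling) on a log axis, with 95% Poisson intervals of the count. *Wwp2* stands at 676 and 53.6 CPM, whereas each of the other 9 genes has its points close together.

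*Wwp2* encodes an E3 ubiquitin ligase of the NEDD4 type that binds SOX9. It lies on chromosome 8 of GRCm38 from 107436334 to 107559290. The gene had 12117 counts in chondrocytes against 986 in dermal fibroblasts, or 676 CPM (interval 664 to 688) and 53.6 CPM (50.3 to 57.0). The fold was 12.6 in favor of chondrocytes, with an interval from 11.8 to 13.5. Of the 14291 genes with at least 10 counts in either library, 219 had a larger fold, which is 1.53% of them. *Wwp2* took 45.4% of the reads of the 10 partner genes in chondrocytes and 6.48% in dermal fibroblasts.

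The ratio of *Wwp2* to *Sox9* counts, which needs no scaling between libraries, was 2.40 in chondrocytes and 2.88 in dermal fibroblasts. The ratio was thus 1.20-fold higher in dermal fibroblasts (exact conditional interval 1.06 to 1.37). Each gene of the pair differed by more than 10-fold, and a ratio change of 1.20-fold restates that their folds were of similar size. Whether the pair varies together was not tested.

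An intron of *Wwp2* carries the hairpin of miR-140, a microRNA known for its abundance in cartilage. In GRCm38 the hairpin lies on chromosome 8 from 107551244 to 107551313, which is 114910 bp after the first base of the gene, on the plus strand. The mature strand listed by RefSeq (GRCm38.p6) is shown because it lies inside the member that differed most, with the seed, bases 2 to 8, in capitals.
mmu-miR-140-3p: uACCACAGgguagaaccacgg

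The row *Mir140* had 19 counts in chondrocytes against 2 in dermal fibroblasts. The ratio after scaling was 9.76, taken without a count floor, with a wide interval from 2.35 to 86.4. With the floor of 3 counts used for the other folds it was 6.50, or 2.70 on the log2 scale, and with a floor of 10 counts the log2 fold was 0.96, which is below 2-fold. Libraries of mRNA do not capture mature microRNAs, so these reads measure RNA that spans the hairpin and not miR-140 itself. Which RNA they came from was not tested.

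GENCODE vM1 lists 3 transcripts of *Wwp2* on NCBIM37. The transcripts with 23 and 24 exons start within 2 bp of each other, and that with 15 exons starts 108668 bp downstream. The hairpin lies in an intron of all 3 transcripts. The deposited count is 1 number for the gene and does not separate them, so the transcript behind the higher *Wwp2* count in chondrocytes was not resolved.

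*Arid5a* and *Arid5b* encode DNA-binding proteins with an AT-rich interaction domain, reported to act with SOX9 in chondrocytes, where ARID5B recruits a histone demethylase. *Arid5a* (chromosome 1, 36307733 to 36324037) had 524 counts in chondrocytes against 330 in dermal fibroblasts, or 29.2 and 17.9 CPM. It was 1.63-fold higher in chondrocytes (interval 1.42 to 1.88). *Arid5b* (chromosome 10, 68092523 to 68279355) had 1050 counts in chondrocytes against 1520 in dermal fibroblasts, or 58.6 and 82.6 CPM. It was higher in dermal fibroblasts by 1.41-fold (interval 1.30 to 1.53).

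The related genes therefore differed in opposite directions, and both directions held under each of the 5 other scalings. There were 0.499 *Arid5a* counts for each *Arid5b* count in chondrocytes and 0.217 in dermal fibroblasts. This ratio was 2.30-fold higher in chondrocytes (exact conditional interval 1.96 to 2.70). *Arid5b* had more counts than *Arid5a* in both libraries. For each *Sox9* count there were 0.208 *Arid5b* counts in chondrocytes and 4.44 in dermal fibroblasts.

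The bases before the RefSeq starts of *Wwp2* and *Arid5a*, the partners with the largest folds toward chondrocytes, are shown up to the first base of the gene. They lie at chr8:107436120-107436333 (214 bases) and chr1:36307483-36307732 (250 bases), both on the plus strand of GRCm38.p6. Capitals mark matches to a short SOX core, ACAAT or ACAAAG, on either strand.
Wwp2: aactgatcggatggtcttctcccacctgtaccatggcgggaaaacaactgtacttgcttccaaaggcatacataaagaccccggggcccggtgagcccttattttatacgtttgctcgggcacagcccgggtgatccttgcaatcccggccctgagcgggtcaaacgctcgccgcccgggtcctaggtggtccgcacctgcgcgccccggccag
Arid5a: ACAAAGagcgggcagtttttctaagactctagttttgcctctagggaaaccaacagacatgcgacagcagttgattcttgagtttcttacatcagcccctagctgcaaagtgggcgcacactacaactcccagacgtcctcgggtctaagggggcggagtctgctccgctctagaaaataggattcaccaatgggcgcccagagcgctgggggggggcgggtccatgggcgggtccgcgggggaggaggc

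Windows of 250 bases before each RefSeq start were then compared, and some of them reach into the span of the gene from another start. The windows of *Wwp2* and *Arid5b* held no match to the core, and that of *Arid5a* held 1, starting 250 bases before the start. RefSeq windows were found for all 10 genes, 12 windows in all, since *Zfp219* and *Kat5* each had a second start. A match occurred in 5 of the 12 windows, which belonged to *Arid5a*, *Nono*, *Med12*, *Zfp219* and *Kat5*. Over all 32851 windows of this length, 38.8% held a match. The longer form AACAAT, which holds ACAAT within it, was in 0 of the 12 windows and in 9.42% of all windows. A match is a description of the letters in this window only, and neither enhancers nor the downstream start of *Wwp2* were searched.

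Base composition differed more among the partners. GC content ranged from 42.0% for *Arid5b*, with 4 CpG dinucleotides, to 84.0% for *Crebbp*, with 44. Both of these windows lie wholly inside the span of their gene, whereas 214 of the 250 bases of the *Wwp2* window lie outside its gene. The *Wwp2* window had 62.8% GC and 22 CpG, against medians of 52.4% and 6 over all windows.

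*Nono* encodes p54nrb, a protein of nuclear paraspeckles that takes part in transcription and splicing. It lies on chromosome X from 101429560 to 101448593. The gene had 6463 counts in chondrocytes against 5371 in dermal fibroblasts, or 361 and 292 CPM. It was 1.24-fold higher in chondrocytes (interval 1.19 to 1.28), the narrowest interval of the group. *Nono* was the partner with the most reads in dermal fibroblasts and the second in chondrocytes.

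*Ep300* and *Crebbp* encode p300 and CBP, paralogous acetyltransferases that modify histones, including H3K27, at active enhancers. *Ep300* (chromosome 15, 81586209 to 81652077) had 1542 counts in chondrocytes against 1919 in dermal fibroblasts, or 86.0 and 104 CPM. It was higher in dermal fibroblasts by 1.21-fold (interval 1.13 to 1.30). *Crebbp* (chromosome 16, 4081334 to 4213957) had 920 and 971 counts, or 51.3 and 52.7 CPM.

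The *Crebbp* fold was 0.973, and its interval, 0.888 to 1.07, included equality with TMM. With total counts the interval lay wholly below equality. The direction of the *Crebbp* fold turned with 2 of the 5 other scalings. There were 1.68 *Ep300* counts for each *Crebbp* count in chondrocytes and 1.98 in dermal fibroblasts, a ratio 1.18-fold higher in dermal fibroblasts (exact conditional interval 1.05 to 1.32). Relative to *Sox9*, there were 0.306 *Ep300* counts for each *Sox9* count in chondrocytes and 5.61 in dermal fibroblasts.

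*Kat5* encodes TIP60, the catalytic subunit of another acetyltransferase complex. It lies on chromosome 19 from 5603014 to 5611556. The gene had 621 counts in chondrocytes against 580 in dermal fibroblasts, or 34.6 and 31.5 CPM. The fold of 1.10 had an interval from 0.980 to 1.23, which included equality with TMM but not under every scaling. The *Ep300* to *Kat5* count ratio was 2.48 in chondrocytes and 3.31 in dermal fibroblasts, which differ by 1.33-fold (interval 1.17 to 1.52).

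*Med12* encodes a subunit of the Mediator kinase module, and *Med25* a subunit that contacts activators, both reported to act with SOX9. *Med12* (chromosome X, 101274091 to 101298934) had 1676 counts in chondrocytes against 1838 in dermal fibroblasts, or 93.5 and 99.8 CPM. Its fold was 0.937 with an interval from 0.876 to 1.001, and it turned to 1.02 when *Actb* set the scale. With total counts and with median-of-ratios factors the *Med12* interval lay wholly below equality. *Med25* (chromosome 7, 44876765 to 44892705) had 1344 and 1153 counts, or 74.98 and 62.6 CPM. It was 1.20-fold higher in chondrocytes (interval 1.11 to 1.30).

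The *Med12* to *Med25* count ratio was 1.25 in chondrocytes and 1.59 in dermal fibroblasts. This ratio was higher in dermal fibroblasts by 1.28-fold (interval 1.15 to 1.42).

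*Zfp219* encodes a zinc finger protein reported to bind SOX9 and raise its activity. It lies on chromosome 14 from 52006075 to 52021140. The gene had 430 counts in chondrocytes against 544 in dermal fibroblasts, or 24.0 and 29.5 CPM. It was higher in dermal fibroblasts by 1.23-fold (interval 1.08 to 1.40, but reaching equality with *Actb*). Its span shares 173 bp with *Arhgef40*, which had 1689 and 2759 counts, and 4936 bp with *Tmem253*, which had 6 and 2 counts. Because the use of strand in the counting is not given, the share of *Zfp219* reads from these neighbors was not resolved.

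**Figure D2:**
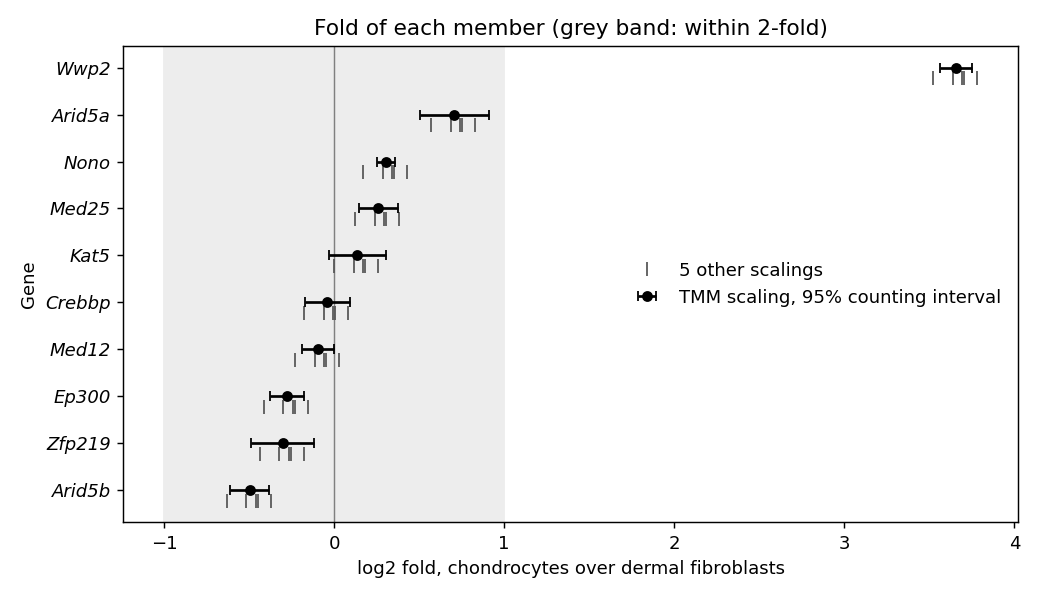
Log2 fold of each gene, chondrocytes over dermal fibroblasts, with TMM scaling (black point, 95% counting interval) and with 5 other scalings (grey ticks). The grey band holds folds within 2-fold, and *Wwp2* at 3.66 is the single gene outside it.

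At 2-fold, 1 member of 10 passed toward chondrocytes and 0 passed toward dermal fibroblasts. Of all genes with at least 10 counts in either library, 11.8% were over 2-fold higher in chondrocytes and 16.2% in dermal fibroblasts. With at least 100 counts in either library, which all 10 members had, these shares were 8.79% and 13.3%. A count of 1 in 10 is near these shares, so the group as a whole did not stand apart by number.

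At a threshold of 1.5-fold with TMM, *Wwp2* and *Arid5a* passed, that is 2 of 10, against 38.6% of the 11162 genes with at least 100 counts in either direction. With total counts *Arid5a* fell to 1.48-fold and did not pass, whereas *Arid5b* passed toward dermal fibroblasts at 1.55-fold. With TMM the whole interval lay above equality for 4 members (*Wwp2*, *Arid5a*, *Nono* and *Med25*) and below equality for 3 (*Arid5b*, *Ep300* and *Zfp219*). Over the genes with at least 10 counts, these shares were 35.5% and 36.5%. The median log2 fold of the 10 genes was 0.05, beside -0.0035 for all those genes. It turned to -0.09 with total counts.

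Levels of different genes were compared per kilobase of exon, with union exon lengths from GENCODE vM1, as CPM per kb (FPKM). In chondrocytes the order was *Wwp2* at 148 FPKM, *Nono* at 82.4, *Med25* at 29.5, *Kat5* at 14.7, *Arid5b* at 12.6, *Med12* at 12.1, *Zfp219* at 7.70, *Ep300* at 7.66, *Crebbp* at 6.84 and *Arid5a* at 3.80. The neighbors *Arid5b* and *Med12*, and *Zfp219* and *Ep300*, did not differ beyond counting error at these lengths. With the length of the longest transcript both pairs changed order, *Med12* at 13.5 FPKM to *Arid5b* at 13.03 and *Ep300* at 9.83 to *Zfp219* at 8.17.

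In dermal fibroblasts *Nono* led with 66.7 FPKM, followed by *Med25* at 24.7 and *Arid5b* at 17.8. *Wwp2* ranked sixth at 11.7 FPKM, between *Med12* at 12.96 and *Zfp219* at 9.48. *Arid5a* was lowest in both libraries, at 2.33 FPKM here. The neighbors *Kat5* and *Med12*, and *Zfp219* and *Ep300*, did not differ beyond counting error in this library. Both pairs changed order here too with the longest transcript, *Med12* at 14.4 FPKM to *Kat5* at 13.96 and *Ep300* at 11.9 to *Zfp219* at 10.1.

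*Sox9* stood at 68.1 FPKM in chondrocytes and 4.49 in dermal fibroblasts. In chondrocytes *Wwp2* and *Nono* were above it, and the other 8 partners lay between 5.58% (*Arid5a*) and 43.4% (*Med25*) of its level. In dermal fibroblasts 9 of the 10 partners were above *Sox9*, and *Arid5a* was at 51.8% of its level. *Nono* there was 14.8 times the level of *Sox9*, and *Crebbp* 1.56 times. The level of a gene with short transcripts is understated by the union length, and with the longest transcript *Nono* was at 141 FPKM in chondrocytes and 114 in dermal fibroblasts.

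**Figure D3:**
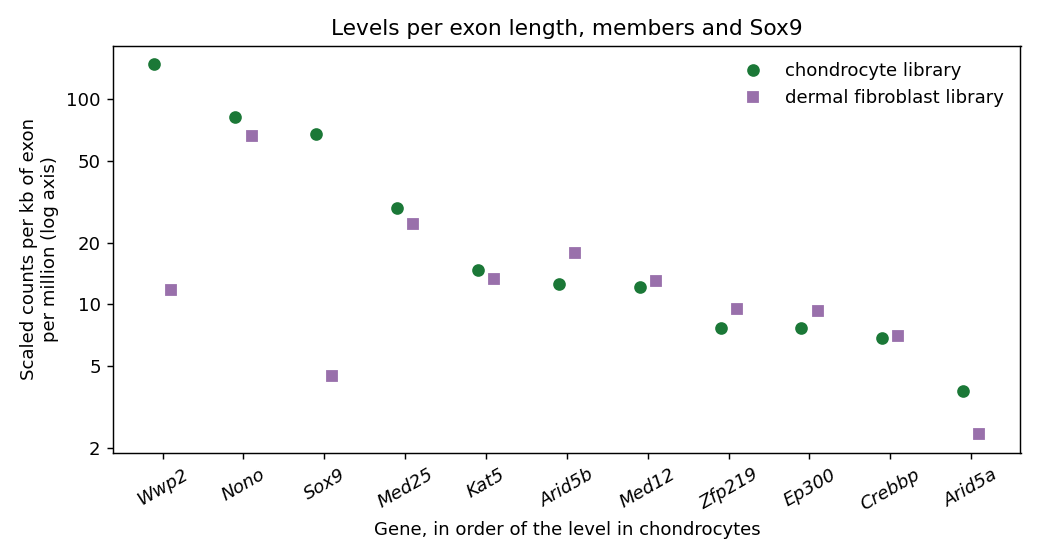
Levels of the 10 partners and *Sox9* as FPKM, on a log axis, in chondrocytes (green circles) and dermal fibroblasts (purple squares). *Sox9* (68.1 and 4.49) and *Wwp2* (148 and 11.7) are the genes whose points lie far apart.

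Each partner was then set beside the genes of its own family or complex. Over all genes with at least 10 counts, 11.8% passed 2-fold toward chondrocytes and 16.2% toward dermal fibroblasts. Among 9 NEDD4-type ubiquitin ligases, *Wwp2* was the single gene over 2-fold higher in chondrocytes. *Smurf2* was 1.11-fold higher in chondrocytes. *Wwp1*, the closest relative of *Wwp2*, had 870 and 825 counts (fold 1.08, interval 0.984 to 1.19, and 0.986 with total counts). *Hecw2* was 7.41-fold higher in dermal fibroblasts, with 39 counts against 297, *Smurf1*, a ligase of the BMP pathway, was 1.69-fold higher there, and *Nedd4l* was 1.39-fold higher. *Hecw1* was at 0 in both libraries. *Wwp2* took 22.4% of the reads of this family in chondrocytes (exact binomial interval 22.05% to 22.8%) and 2.28% in dermal fibroblasts (2.14% to 2.43%). Most reads of the family were those of *Nedd4*, with 36814 counts in chondrocytes and 35791 in dermal fibroblasts, more than *Wwp2* in both.

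Of the 14 ARID proteins, 13 had at least 10 counts, 0 passed 2-fold toward chondrocytes and 1 passed it toward dermal fibroblasts. That gene was *Arid3a*, with 59 counts against 284 and a 4.69-fold difference. *Arid5a* had the largest fold toward chondrocytes in this family, close to *Jarid2*, a partner of Polycomb, at 1.61-fold and followed by *Kdm5a*, a histone demethylase, at 1.34-fold. *Arid5b* had the second-lowest fold among genes of the family with 100 counts, ahead of *Arid4a* at 0.871. The share of ARID reads was 3.75% and 2.37% for *Arid5a*, and 7.52% and 10.9% for *Arid5b*, in chondrocytes and dermal fibroblasts.

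The partners of p54nrb in the DBHS family had the same direction as *Nono*. *Sfpq* was 1.33-fold higher in chondrocytes (interval 1.28 to 1.39) and *Pspc1* 1.91-fold (interval 1.68 to 2.17, and 2.08-fold with *Actb*), and both are core paraspeckle proteins. The 3 genes kept this direction under each scaling, with a median log2 fold between 0.28 and 0.54. *Nono* made up 52.4% of the reads of the family in chondrocytes and 55.2% in dermal fibroblasts.

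Among 12 lysine acetyltransferases and related coactivators, 0 passed 2-fold toward chondrocytes and 1, *Kat2b* (PCAF), passed it toward dermal fibroblasts (2.16-fold, 273 counts against 606, and 1.99-fold with *Actb*). *Kat6b* had 1045 counts against 576 and was 1.86-fold higher in chondrocytes, or 2.03-fold with *Actb*. *Kat7* followed at 1.21-fold and *Ncoa2* at 1.15-fold, and *Ncoa1*, a coactivator of nuclear receptors, was 1.63-fold higher in dermal fibroblasts. *Ep300* took 12.3% of the reads of this list in chondrocytes and 15.1% in dermal fibroblasts, *Crebbp* 7.32% and 7.66%, and *Kat5* 4.94% and 4.58%.

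The histone deacetylases of classes I, II and IV were set beside them. Of 11 genes, 4 passed 2-fold toward dermal fibroblasts and 0 toward chondrocytes, beside 16.2% and 11.8% of all genes with at least 10 counts. *Hdac9* was 3.89-fold higher in dermal fibroblasts (33 counts in chondrocytes against 132), *Hdac7* 2.65-fold (700 against 1902) and *Hdac11* 2.30-fold (81 against 191). The fourth was *Hdac4*, a class IIa enzyme like *Hdac7* and *Hdac9* and known to restrain chondrocyte hypertrophy, with 327 counts against 709. *Hdac4* was named after its values were seen, and was 1.94-fold higher with *Actb*, which leaves 3 genes past the threshold. *Hdac1*, *Hdac2* and *Hdac8* lay between 1.10 and 1.40-fold toward chondrocytes. The median log2 fold of the list was -0.35, against 0.14 for the acetyltransferases.

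Of the 17 subunits of the TIP60 complex, *Ruvbl2*, an ATPase, was over 2-fold higher in chondrocytes, with 1824 counts against 892 (fold 2.10, interval 1.94 to 2.28). With total counts this fold was 1.91 and 0 subunits passed toward chondrocytes. Its relative *Ruvbl1* was 1.44-fold higher and *Brd8* 1.43-fold higher. *Mrgbp* had the lowest fold, 0.543, with 159 counts against 301, and passed 2-fold toward dermal fibroblasts with total counts at 2.03-fold. *Epc2* followed at 0.884 and *Ep400* at 1.01, and the direction of *Ep400* turned with 2 of the 5 other scalings. The median log2 fold was 0.20, and *Kat5* at 0.14 was near it.

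Mediator was represented by 33 genes, and 32 of them were within 2-fold. *Med12l*, a paralog of *Med12*, was 3.97-fold higher in dermal fibroblasts on few reads, with 27 counts against 110. *Ccnc*, the cyclin of the kinase module that holds MED12, had a fold of 0.718 and *Med10* of 0.826. The highest folds were those of *Med30* (1.74), *Med22* (1.68) and *Med27* (1.45). The median log2 fold was 0.13 and turned to -0.0043 with total counts. *Med12* took 7.31% of Mediator reads in chondrocytes and 8.41% in dermal fibroblasts, and *Med25* took 5.86% and 5.27%.

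A further list held 12 genes whose products have been reported to act on or with SOX9. Of these, 2 passed 2-fold toward chondrocytes and 0 toward dermal fibroblasts. *Scx*, a factor of tendon and cartilage progenitors, was 2.83-fold higher with 160 counts against 58 (interval 2.09 to 3.90). The other gene was *Ppargc1a*, with 51 counts against 24, named after its values were seen. Its fold was 2.18, or 1.99 with total counts. *Setd7*, a lysine methyltransferase, was 1.51-fold higher, and *Ctnnb1*, which encodes β-catenin, 1.18-fold. *Maf* was 1.57-fold higher in dermal fibroblasts (938 counts against 1509), *Smad2* 1.20-fold and *Phf2*, the demethylase that acts with ARID5B, 1.12-fold. The median log2 fold of this list was 0.08.

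The SOX proteins that act beside SOX9 differed far more than its cofactors. *Sox5* had 957 counts against 27 and was 36.4-fold higher in chondrocytes, and *Sox6* had 2897 against 106 and was 28.1-fold higher. Of the 10 cofactors, *Wwp2* came nearest to these folds.

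**Figure D4:**
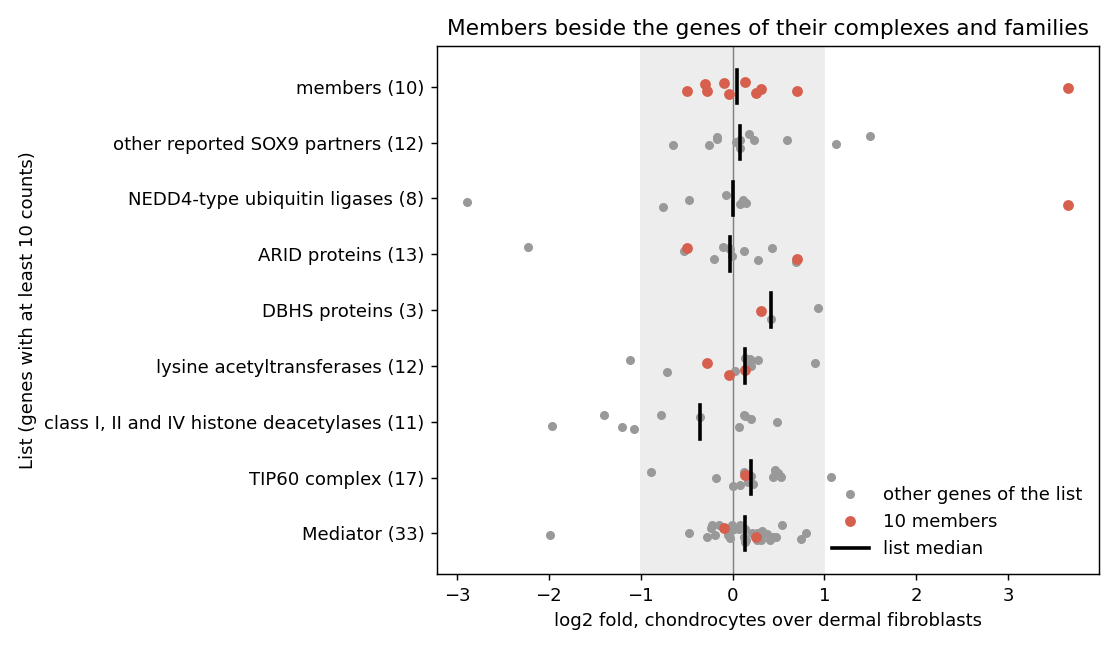
Log2 fold of the genes with at least 10 counts in each family or complex (number of genes in parentheses), with the 10 members in red, other genes in grey and the list median as a black bar. Medians lie between -0.35 for the deacetylases and 0.42 for the DBHS proteins, and *Wwp2* lies to the right of every other gene shown.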

How the data were processed

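RNA-Seq was analysed for 1 chondrocyte library and 1 dermal fibroblast library. Per the labels, the authors made stranded mRNA libraries, called bases with CASAVA 1.8.2 and mapped reads to mm10 with TopHat2 2.0.13, Bowtie2 2.2.3 and SAMtools 0.1.19. The values the authors deposited are unscaled counts of reads, in whole numbers, for each gene symbol. The counting program, its annotation, its use of strand and its handling of multimapped reads are not given in the sources used here.

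Scaling used TMM factors (edgeR 4.0.16, R 4.3.3), 0.954 for chondrocytes and 1.05 for dermal fibroblasts. A floor of 3 counts applied to every fold, but the *Mir140* ratio is also given without it. Intervals were computed with Python 3.11.15 and scipy 1.17.1, and the calculations were tested on simulated data. Rows whose symbol had become a date (27) stayed in the totals. Alternatives were total counts, DESeq2 1.42.0 median-of-ratios factors, the upper quartile, totals that leave out the top 10 genes of each library, scaling on *Actb*, a pseudocount of 1, count floors of 1 and 10, folds over 1.5 and 4, other count filters and the longest transcript as length. Gene positions are RefSeq spans on GRCm38, and exon lengths are those of GENCODE vM1 on NCBIM37.

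The members and lists were chosen with earlier results of these data known. Genes named were the 10 members, the SOX trio, *Mir140*, *Actb*, the 3 highest and 3 lowest folds of each list among genes with at least 100 counts, and the 3 most abundant markers of each cell type, of which the most telling are printed. *Hecw1*, *Nedd4*, *Hdac4*, *Ppargc1a*, *Lum*, *Myod1*, *Myog*, *Pax7*, *Des* and the 2 genes that overlap *Zfp219* lie outside this rule. They were chosen after their values were seen.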

Additional observations from a re-analysis of the deposited data

How the results depend on the processing

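No paired analysis was possible because there was a single library of each cell type, and no library could be left out. The fold of *Wwp2* ranged from 11.5 with total counts to 13.7 with *Actb*. Relative to TMM, total counts moved every log2 fold by -0.14 and *Actb* by 0.12. Of 80 member folds under the alternatives, 67 stayed within the counting interval. The folds with another floor or a pseudocount are among these, and at the counts of the members they could hardly move. All 13 folds that left the interval did so under another scaling. No member whose interval left out equality with TMM changed direction. *Wwp2* was the single member over 2-fold under each scaling, floor and pseudocount. With a fold over 1.5 and TMM there were 2 in chondrocytes. With total counts *Arid5a* no longer passed 1.5-fold, and *Arid5b* passed it toward dermal fibroblasts. With total counts, 5 members had an interval below equality, with *Crebbp* and *Med12* added. With median-of-ratios factors 4 had, with *Med12* added. With *Actb* 2 had, since that of *Zfp219* then reached equality. Members with an interval above equality became 5, with *Kat5* added, under the upper quartile, totals without the top 10 genes and *Actb*. Over all genes with at least 10 counts, the numbers over 2-fold were 1684 in chondrocytes and 2319 in dermal fibroblasts. They became 2851 and 3510 with a fold over 1.5, 713 and 929 with a fold over 4, and 981 and 1485 with at least 100 counts. Of the genes over 2-fold in either direction, the share higher in chondrocytes was 42.1% with TMM, 35.5% with total counts and 47.8% with *Actb*. Among the list genes named, *Ruvbl2*, *Ppargc1a*, *Mrgbp* and *Myog* changed sides of the 2-fold threshold with total counts, and *Kat2b*, *Kat6b*, *Pspc1* and *Hdac4* with *Actb*. The depth limits the folds of *Mir140*, *Med12l*, *Hecw2*, *Hdac9*, *Hdac11*, *Arid3a* and *Ppargc1a*, which had under 100 counts in chondrocytes, and of *Mir140*, *Ppargc1a*, *Sox5* and *Scx*, which had under 100 counts in dermal fibroblasts. The *Mir140* log2 fold fell from 2.70 to 0.96 with a floor of 10 counts.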
